A study of Mus musculus with 721 samples.

Results

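The ciliary transcription factor genes Rfx1, Rfx2, Rfx3 and Foxj1 and the axonemal genes Tekt1, Tekt2 and Fam183b were followed through endocrine differentiation in single cells of the embryonic mouse pancreas. These 7 genes are 7 of the 32913 entries of the deposited gene table, matched by symbol, and were chosen with their values by cell state already known, so their differences between states are given as a description with no test. The study sorted single eGFP-positive cells from the pancreas of mouse embryos carrying the Neurogenin 3-eGFP reporter, in which eGFP marks cells that make or recently made the endocrine-inducing factor Neurog3, and prepared full-length cDNA from each cell with the SMART-seq protocol. Of 721 cells, 658 had at least 100000 mapped fragments and at least 1500 genes at 1 FPKM (fragments per kilobase of transcript) or more. Levels below are FPKM scaled to a common depth. The thresholds for keeping cells, for states, for markers and for shares of cells use FPKM as deposited, which are not corrected for depth. All groups carry the reporter and were sorted for it, none received a treatment, and the labels name neither the animals nor how many were pooled.

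The cells fell into 8 sets by embryonic day and sequencing run. The sets of E11.5 (73 cells) and of E12.5 (90 cells) were sequenced in run 1 only, and E13.5 (68 and 78 cells), E14.5 (94 and 85) and E15.5 (88 and 82) in runs 1 and 2. Set means are the unit of comparison below, and p-values measure the spread between these sets, which may be technical. Each cell was placed by its deposited values in 1 of 5 states. Hormone cells (182) had at least 1 of 6 hormone genes at 100 FPKM or more. Of the others, Neurog3-only cells (163) had Neurog3 at 10 FPKM or more and Fev, a transcription factor of later endocrine precursors, below 10 FPKM. Neurog3-Fev cells (79) had both at 10 FPKM or more, Fev-only cells (60) had Fev alone, and 174 cells had none of these genes past its threshold. Median depth ran from 524062 fragments in Neurog3-Fev cells to 618476 in hormone cells.

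RFX proteins are winged-helix transcription factors that bind the X-box, a paired site found in the promoters of many ciliary genes, and in mice Rfx3 is known for its part in both ciliogenesis and endocrine pancreas development. Foxj1 is the regulator best known for switching on the genes of motile cilia. Tektins are filament proteins that run along the doublet microtubules of motile axonemes, while Fam183b encodes a small protein of a cilia- and flagella-associated family, and the primary cilium of an islet cell is a sensory structure built on the same microtubule scaffold.

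The promoters of the 3 axonemal genes and of Rfx2 were picked after their levels by state were seen and because 1 window of each holds a paired X-box-like sequence. RefSeq windows of GRCm38.p6, from 250 bases before to 50 after the annotated start, were available for 6 of the 7 genes, all but Foxj1. The search used the half-site GTTGCC and its pairing with GNNAC over 1 to 4 intervening bases (GTTGCCNGNNAC, GTTGCCNNGNNAC, GTTGCCNNNGNNAC and GTTGCCNNNNGNNAC) on both strands, patterns that were settled after the members' promoters had been read. Each sequence is on the minus strand of its chromosome, 5′ to 3′, with half-sites and pairs in capitals: Tekt1 at chr11:72361833-72362132, Tekt2 at chr4:126325639-126325938, Fam183b at chr11:58801911-58802210 and Rfx2 at chr17:56830959-56831258.
Tekt1: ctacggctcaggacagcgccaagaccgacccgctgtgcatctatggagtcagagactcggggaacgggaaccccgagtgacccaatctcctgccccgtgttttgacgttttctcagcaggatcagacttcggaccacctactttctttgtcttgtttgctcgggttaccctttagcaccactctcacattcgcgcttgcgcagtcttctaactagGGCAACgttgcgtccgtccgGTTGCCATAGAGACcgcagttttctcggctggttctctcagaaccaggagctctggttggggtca
Tekt2: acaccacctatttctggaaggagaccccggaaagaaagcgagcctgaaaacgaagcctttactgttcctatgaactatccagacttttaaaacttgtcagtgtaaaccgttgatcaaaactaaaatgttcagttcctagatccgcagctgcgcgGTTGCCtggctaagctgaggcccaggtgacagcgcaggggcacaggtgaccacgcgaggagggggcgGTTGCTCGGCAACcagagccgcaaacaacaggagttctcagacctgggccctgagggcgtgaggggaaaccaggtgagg
Fam183b: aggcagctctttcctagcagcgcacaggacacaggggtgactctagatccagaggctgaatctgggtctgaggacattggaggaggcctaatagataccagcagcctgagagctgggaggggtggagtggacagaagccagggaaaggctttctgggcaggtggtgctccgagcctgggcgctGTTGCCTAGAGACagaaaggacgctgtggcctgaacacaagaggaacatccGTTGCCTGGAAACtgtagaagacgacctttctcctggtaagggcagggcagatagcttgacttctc
Rfx2: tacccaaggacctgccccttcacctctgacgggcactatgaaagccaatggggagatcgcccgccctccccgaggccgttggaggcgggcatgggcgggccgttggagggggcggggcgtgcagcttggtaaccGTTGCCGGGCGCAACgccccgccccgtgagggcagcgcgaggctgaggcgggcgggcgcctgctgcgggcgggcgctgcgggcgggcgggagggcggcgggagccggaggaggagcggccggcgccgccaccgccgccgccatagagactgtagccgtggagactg
The pair starts 15 bases before the transcript start in Tekt1, 29 bases before it in Tekt2 (read on the other strand), and 67 and 16 bases before it in Fam183b, where there are 2. In Rfx2 it starts 116 bases before. RefSeq has 2 windows for Tekt1 and 3 for Tekt2: the other Tekt1 window and 1 further Tekt2 window hold neither half-site nor pair, and the remaining one overlaps the window printed and holds the same pair. The Rfx1 and Rfx3 windows hold a half-site and no pair. Among all 32851 promoter windows of this length, 4111 hold the half-site on either strand and 2.11% hold any of the pairs, with overlaps between the patterns counted once. The genes shown were picked with their matches known, so no enrichment can be read from these shares. A match is a run of letters, and binding was not measured.

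Cells with markers of other cell types were found, mostly in the early sets. Among the cells with none of the state genes, 108 of 174 had at least 3 of 8 markers of another cell type at 10 FPKM or more, against 14 of 163 Neurog3-only, 4 of 79 Neurog3-Fev, 0 of 60 Fev-only and 11 of 182 hormone cells. In the Neurog3-only group, the 7 cells of E12.5 had summed acinar markers of 4858 FPKM and the 6 cells of E11.5 had summed leukocyte markers of 2308 FPKM, where the sets from E13.5 on had at most 270.4 and 18.8. Cells with at least 3 leukocyte markers and none of the state genes (41 cells, median depth 593700 fragments) serve as the background for detection. This lineage is not known for these axonemal genes. At 1 FPKM or more, Tekt2 was found in 1 of them (2.44%), Tekt1, Fam183b and Rfx2 in 2 each (4.88%), Rfx3 in 5 (12.2%), Rfx1 in 6 (14.6%) and Foxj1 in 0, which allows a share of up to 7.32%.

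Over the 28 averages of at least 5 cells of a state in a set, the levels covered a wide range. Fam183b was the most abundant, with a mean of 629.4 FPKM, and Tekt2 followed with 113.5 FPKM. Rfx2 (18.2 FPKM), Rfx3 (14.4 FPKM) and Tekt1 (8.05 FPKM) came next, and their set means overlap in most states. Rfx1 averaged 1.78 FPKM and Foxj1 0.0446 FPKM, so Foxj1 alone missed the filter of 1 FPKM for the fits. Of the 658 cells, 67.5% had Fam183b, 62.6% Tekt2, 61.6% Rfx3, 27.1% Rfx2, 15.96% Tekt1, 12.8% Rfx1 and 1.52% Foxj1. No cell had Tekt1, Tekt2 or Fam183b above 0 and below 1 FPKM, whereas 77 cells had Rfx3 and 31 had Rfx1 in that range. The lowest deposited values above 0 were 1.39 FPKM for Tekt1, 1.32 for Tekt2 and 4.64 for Fam183b, beside 0.192 for Rfx3 and 0.433 for Rfx1. For the 3 axonemal genes any value above 0 thus passes 1 FPKM, so the shares are not at like thresholds between genes. FPKM is divided by transcript length, so the mean levels, unlike the shares, can be set side by side between genes.

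**Figure D1:**
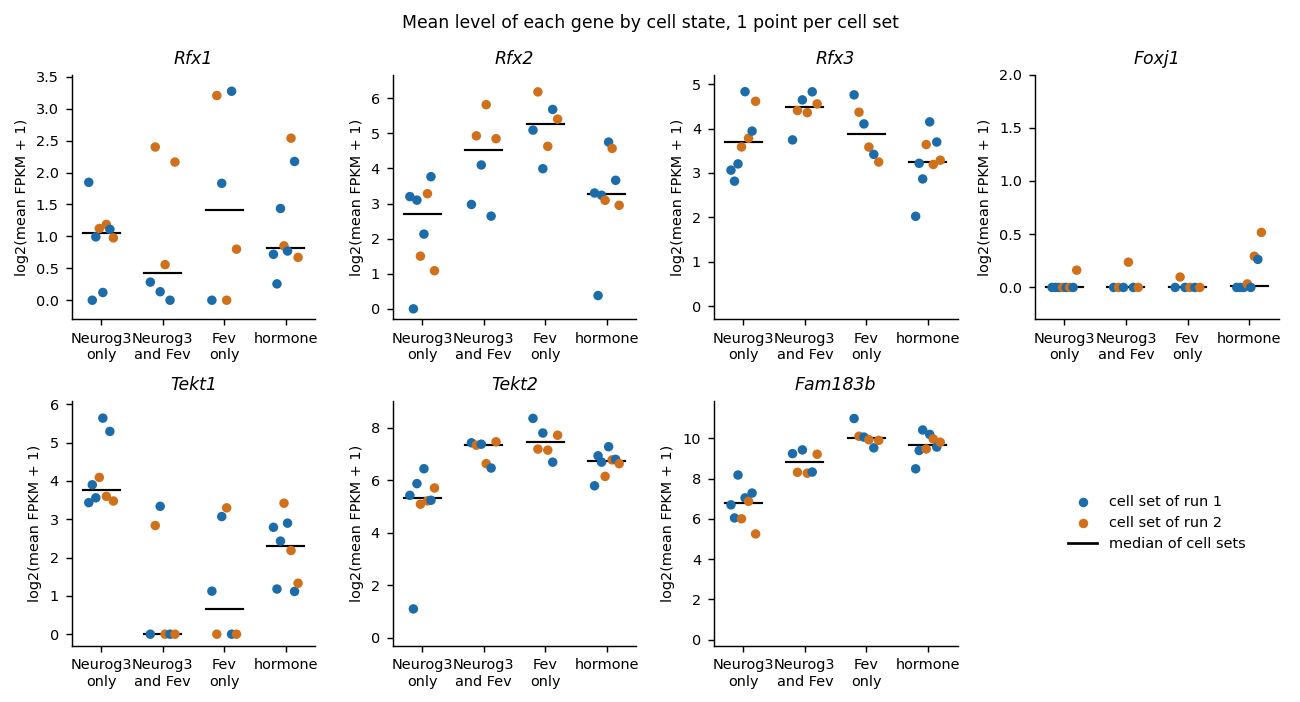
Mean level of each of the 7 genes by cell state, as log2(mean FPKM + 1), with 1 point per cell set (blue, run 1; orange, run 2) and a bar at the median of the sets. Fam183b and Tekt2 lie lowest in Neurog3-only cells, Tekt1 lies highest there, and Foxj1 stays at or near 0 in every state.

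Of Rfx1, Rfx2 and Rfx3, Rfx3 was found in the largest share of cells of every endocrine state, with set means that overlapped between all states. Its set means ran from 6.03 to 27.5 FPKM (median 11.9) in Neurog3-only cells, from 12.4 to 27.4 FPKM (median 21.4) in Neurog3-Fev cells, from 8.49 to 26.1 FPKM (median 13.6) in Fev-only cells and from 3.06 to 16.8 FPKM (median 8.53) in hormone cells. Neurog3-Fev cells had the highest median and hormone cells the lowest. The share of cells with Rfx3 was 69.9% (exact 95% interval 62.3 to 76.9) in Neurog3-only cells, 83.5% (73.5 to 90.9) in Neurog3-Fev cells, 70% in Fev-only cells and 60.99% (53.5 to 68.1) in hormone cells, well over the 12.2% of leukocyte-marked cells. The fitted difference between Neurog3-only and hormone cells, on the log2(mean FPKM + 1) scale as for all such differences here, was 0.47 (SE 0.28), with Neurog3-only cells higher in 6 of 8 sets. It was 0.38 in run 1 and 0.62 in run 2. The Neurog3-Fev difference from Neurog3-only cells was 0.46 (SE 0.31, higher in 4 of 6 sets), and the Fev-only difference of -0.05 (SE 0.31) took the other sign in 7 of 25 alternative analyses.

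Rfx2 was low in Neurog3-only cells and higher where Fev was present. Its set means in Neurog3-only cells ran from 0 to 12.6 FPKM (median 5.46). In Neurog3-Fev cells they ran from 5.24 to 55.3 FPKM (median 21.9), and in Fev-only cells from 14.9 to 71.4 FPKM (median 37.2), with the lowest Fev-only set above the highest Neurog3-only set. Hormone cells lay between, from 0.300 to 25.9 FPKM (median 8.63). The gene was found in 17.8% of Neurog3-only cells (12.3 to 24.5), 48.1% of Neurog3-Fev cells (36.7 to 59.6), 50% of Fev-only cells (36.8 to 63.2) and 34.1% of hormone cells (27.2 to 41.4). The Fev-only difference from Neurog3-only cells was 2.56 (SE 0.53), higher in 6 of 6 sets, with 1.79 in run 1 and 3.45 in run 2. The Neurog3-Fev difference of 1.62 (SE 0.53) rested on run 2: it was 3.24 in run 2 and 0.11 in run 1, and higher in 4 of 6 sets. Neurog3-only cells were lower than hormone cells in 7 of 8 sets, by a fitted -0.99 (SE 0.48).

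Rfx1, the family member known for its broad expression, had a low median in every endocrine state. Its set means had medians of 1.07 FPKM in Neurog3-only, 0.344 in Neurog3-Fev, 1.65 in Fev-only and 0.755 in hormone cells. The highest set mean was 8.66 FPKM, in Fev-only cells of E15.5 run 1. Rfx1 reached 1 FPKM in 9.20% to 20% of cells of these states, and no state stood apart. The 14.6% of leukocyte-marked cells lies in this range, but for a gene of broad expression these cells may not give a background. The differences from Neurog3-only cells were -0.11 (SE 0.56) in Neurog3-Fev cells and 0.48 (SE 0.56) in Fev-only cells, and these took the other sign in 8 and 1 of 24 alternative analyses.

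Foxj1 was found in very few cells. Only 10 of 658 cells had it at 1 FPKM or more (1.52%, exact 95% interval 0.731 to 2.78). They were 1 of 163 Neurog3-only cells, 1 of 79 Neurog3-Fev cells, 0 of 60 Fev-only cells, 5 of 182 hormone cells and 3 of the 174 cells with none of the state genes. Set means were 0 in 7 of 8 Neurog3-only, 5 of 6 Neurog3-Fev, 5 of 6 Fev-only and 4 of 8 hormone sets, and the highest anywhere among these states was 0.431 FPKM, in hormone cells of E15.5 run 2. The highest single cell had 15.9 FPKM. All states lie under the 7.32% that 0 of 41 leukocyte-marked cells allows for background, and the exact intervals of the shares overlap between all states.

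Tekt1, the axonemal gene of this group with the lowest level, was highest in Neurog3-only cells among the 4 endocrine states. Its set means there ran from 9.81 to 48.9 FPKM (median 12.52), the 2 highest being 48.9 FPKM at E14.5 and 38.2 FPKM at E15.5, both in run 1. Over the sets with at least 5 such cells, Neurog3-Fev cells had 0 FPKM in 4 of 6 sets and at most 9.11 FPKM, and Fev-only cells had 0 in 3 of 6 and at most 8.83 FPKM. Hormone cells ran from 1.17 to 9.70 FPKM (median 3.97). Every Neurog3-only set therefore lay above every set of at least 5 cells of the other 3 endocrine states, though narrowly. The closest were 9.81 FPKM in Neurog3-only cells of E11.5 and 9.70 FPKM in hormone cells of E13.5 run 2. In the Neurog3-only sets of E11.5 and E12.5, 1 of 6 and 1 of 7 cells had Tekt1, so these means rest on single cells. The gene was found in 26.4% of Neurog3-only cells (19.8 to 33.8), 7.59% of Neurog3-Fev cells (2.84 to 15.8), 10% of Fev-only cells (3.76 to 20.5) and 11.54% of hormone cells (7.29 to 17.1), where leukocyte-marked cells gave 4.88%. The fitted difference was 1.96 (SE 0.50) between Neurog3-only and hormone cells, higher in 8 of 8 sets, with 2.28 in run 1 and 1.41 in run 2. It was -3.20 (SE 0.56) for Neurog3-Fev and -2.98 (SE 0.56) for Fev-only cells against Neurog3-only cells, lower in 6 of 6 sets each. Outside these states, cells with none of the state genes had set means of 0 to 16.2 FPKM (median 7.95) over sets of at least 5 cells. The highest was at E11.5, above the 9.81 FPKM of Neurog3-only cells there. Of the cells with none of the state genes, the 51 with at least 3 acinar markers (median depth 623400 fragments) had Tekt1 in 33.3% of cases. Their mean was 17.5 FPKM. Without cells carrying other-type markers the Neurog3-only difference from hormone cells was 2.41.

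Tekt2 went the opposite way. It was lowest in Neurog3-only cells, with set means from 1.15 to 86.1 FPKM (median 39.5), beside 87.7 to 177 FPKM (median 163) in Neurog3-Fev cells and 103 to 328 FPKM (median 178) in Fev-only cells, ranges that do not overlap with the Neurog3-only sets. Hormone cells had 54.5 to 155 FPKM (median 106). The share of cells with Tekt2 was 50.3% (42.4 to 58.2) in Neurog3-only, 83.5% (73.5 to 90.9) in Neurog3-Fev, 95% (86.1 to 99.0) in Fev-only and 86.3% (80.4 to 90.9) in hormone cells. The differences from Neurog3-only cells were 1.77 (SE 0.43) in Neurog3-Fev and 2.14 (SE 0.43) in Fev-only cells, higher in 6 of 6 sets each and of like size in each run (1.65 and 1.81, and 2.17 and 2.02, for runs 1 and 2). Neurog3-only cells were lower than hormone cells in 8 of 8 sets, by a fitted -1.62 (SE 0.39), which was -1.02 without the E12.5 set.

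Fam183b showed the widest range. Neurog3-only cells had set means of 37.1 to 289 FPKM (median 110), Neurog3-Fev cells 308 to 689 FPKM (median 457), Fev-only cells 739 to 2031 FPKM (median 1026) and hormone cells 359 to 1368 FPKM (median 828.5). The lowest set of each Fev-positive or hormone group lay above the highest Neurog3-only set, and the lowest Fev-only set above the highest Neurog3-Fev set. Fam183b was found in 46.01% (38.2 to 53.98) of Neurog3-only cells, 88.6% (79.5 to 94.7) of Neurog3-Fev cells, 98.3% (91.1 to 100) of Fev-only cells and 92.9% (88.1 to 96.1) of hormone cells. The fitted difference from Neurog3-only cells was 1.96 (SE 0.27) in Neurog3-Fev cells and 3.25 (SE 0.27) in Fev-only cells, and Neurog3-only cells lay -2.99 (SE 0.25) from hormone cells, with all sets on one side in each case. By run, the Fev-only difference was 2.69 in run 1 and 3.94 in run 2, and the difference between Neurog3-only and hormone cells was -2.57 and -3.71. The share of all genes whose sets do not overlap between these states was not counted, so how common such separation is cannot be told. By a different measure, an adjusted p under 0.05 (limma, Benjamini-Hochberg), 8.15% of the 16030 genes fitted differed between Neurog3-only and hormone cells. It was 3.59% between Neurog3-Fev and Neurog3-only cells and 10.8% between Fev-only and Neurog3-only cells. Nothing is read from these shares for genes chosen by their state values.

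**Figure D2:**
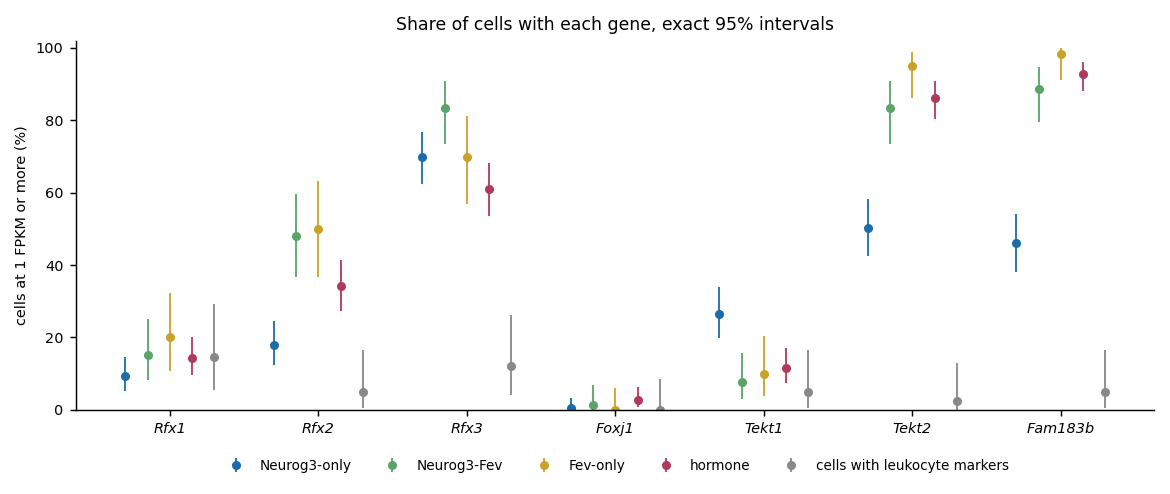
Share of cells with each gene at 1 FPKM or more, as deposited, in the 4 endocrine states and in cells with leukocyte markers and none of the state genes. The exact 95% binomial intervals cover counting error only. Fam183b was found in 46.01% of Neurog3-only and 98.3% of Fev-only cells, and Tekt1 in 26.4% and 10%.

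Tekt2 and Fam183b were found in most hormone cells of every kind. Fam183b was present in 59 of 59 cells with more than 1 hormone, 20 of 20 ghrelin cells, 39 of 42 insulin cells, 27 of 33 glucagon cells, 18 of 19 pancreatic polypeptide cells and 6 of 9 somatostatin cells. Tekt2 was present in 54 of 59, 15 of 20, 35 of 42, 29 of 33, 18 of 19 and 6 of 9 of these cells, in the same order. With 5 or more cells of a kind in only 1 to 5 sets, differences between hormones were not tested. The 64 hormone cells that still had Neurog3 at 10 FPKM or more and the other 118 had Fam183b in 82.8% and 98.3% of cells, with median set means of 918.4 and 948.1 FPKM. The difference in shares was not tested. Tekt2 was in 81.3% and 88.98% of them, with 96.9 and 101 FPKM.

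Within Neurog3-only cells, Fam183b was found in a larger share of the cells with Tekt2 than of those without. Of the 82 cells with Tekt2, 62.2% had Fam183b, against 29.6% of the 81 without, and the Pearson correlation of their log levels over the 163 cells was 0.34. In the 182 hormone cells it was 0.42. Cells of 1 set share their library preparation, so these values are descriptions. Tekt1 did not go with them: it had a correlation of -0.13 with Tekt2 and -0.03 with Fam183b over the 163 cells. Rfx3 had -0.03 with Tekt2 and 0.01 with Fam183b, and Rfx2 had 0.12 and 0.20.

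Neurog3 levels in Neurog3-only cells are given by the presence of these genes, pooled over sets whose mean Neurog3 ran from 80.4 to 3211 FPKM. The set highest in Neurog3, E15.5 run 2, was the lowest in Fam183b (37.1 FPKM). Median Neurog3 was 770.8 FPKM in the 75 cells with Fam183b and 1645 FPKM in the 88 without, at median depths of 555500 and 609600 fragments, and the correlation of the log levels of Fam183b and Neurog3 was -0.37 over all 163 cells and -0.38 with each set centred on its mean. By set, cells with Fam183b had the lower median Neurog3 in 4 of the 7 sets with at least 3 cells of each kind. For Tekt1 the order was the other way, with 1843 FPKM in the 43 cells with it and 1051 FPKM in the 120 without (correlation 0.21 pooled and 0.22 within sets, higher in 6 of 6 sets). For Rfx2 the pooled medians were close, at 1421 FPKM in the 29 cells with it and 1331 FPKM in the 134 without. Its correlation with Neurog3 was -0.14 pooled and -0.19 within sets, and median Neurog3 was lower with Rfx2 in 3 of 4 sets. In Neurog3-Fev cells median Neurog3 was lower with Rfx2 in 5 of 5 sets, at a correlation of -0.05 within sets. Pooled, the order was the other way, with 336.8 FPKM in the 38 cells with Rfx2 and 296 FPKM in the 41 without (correlation 0.05). In Neurog3-Fev cells, those with Tekt2 had a median Neurog3 of 264 FPKM (66 cells) and those without had 1367 FPKM (13 cells), while the correlation of the log levels was -0.09.

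Along embryonic day, a fit over the 8 sets of Neurog3-only cells with run as a covariate found no member past the threshold, and none of 15311 genes was (0%), although 1158 had an unadjusted p under 0.05. Rfx3 had the clearest slope, 0.40 log2 units per day (SE 0.18, adjusted p 0.647). Its Neurog3-only set means were 7.35 FPKM at E11.5 and 6.03 FPKM a day later. From E13.5 on they were 8.21, 27.5 and 14.4 FPKM in run 1, beside 11, 12.8 and 23.5 in run 2. Tekt1 had a slope of 0.40 (SE 0.20, adjusted p 0.670), which was -0.31 in run 2 alone. Tekt2 had 0.47, Rfx2 0.24, Fam183b 0.12 and Rfx1 -0.12, each with an adjusted p of 0.823 or more. The Neurog3-only set of E12.5, with 7 cells, had 1.15 FPKM of Tekt2, where the next lowest set had 33.1.

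Between runs, with day as a factor over the 6 sets of the days that both runs hold, no tested member passed either, while 0.187% of 14940 genes did (0.161% higher and 0.0268% lower in run 2). Fam183b was lower in run 2 by a fitted -1.46 (SE 0.45, adjusted p 0.439), with 289, 131 and 155 FPKM in run 1 from E13.5 to E15.5 and 63.3, 116 and 37.1 FPKM in run 2. Tekt1 had -1.11, Rfx2 -1.04, Tekt2 -0.51 and Rfx3 0.00. Rfx1 and Foxj1 were under the filter in this fit. The hormone cells of run 2 had 710.1, 1003 and 897.8 FPKM of Fam183b, within the 759.3 to 1368 FPKM of run 1 but for the first.

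**Figure D3:**
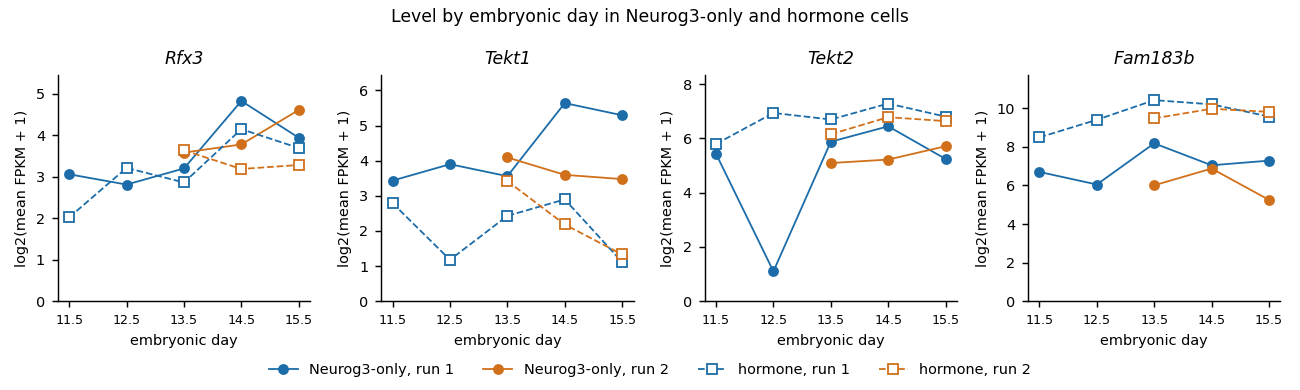
Mean level by embryonic day, as log2(mean FPKM + 1), of Rfx3, Tekt1, Tekt2 and Fam183b in Neurog3-only cells (filled, solid) and hormone cells (open, dashed), blue for run 1 and orange for run 2. Fam183b is higher in hormone cells at every day and in each run, and Tekt1 is higher in Neurog3-only cells.

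Other ciliary genes were read from 5 lists, none of which holds a member. In the motile axoneme list, 43 of 70 genes could be fitted. In Neurog3-only against hormone cells, 10 were lower and 0 higher, beside 4.82% lower and 3.33% higher of all genes, and the list's median difference was -0.73, beside -0.00 for all genes. In Neurog3-Fev against Neurog3-only cells 4 were higher and 0 lower (1.34% and 2.25% of all genes, medians 0.32 and -0.11). In Fev-only against Neurog3-only cells 10 were higher and 1 lower (3.73% and 7.06% of all genes, medians 0.55 and -0.17). These comparisons share the Neurog3-only sets. The lower one was Ak8, an adenylate kinase gene, at -2.33 (SE 0.57), named here after its value was seen.

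Drc1, a subunit of the nexin-dynein regulatory complex that links axonemal doublets, had set means of 0.125 to 8.90 FPKM (median 4.79) in Neurog3-only cells and 10.7 to 41.3 FPKM (median 28.2) in Fev-only cells, with no overlap. It was higher by 2.69 (SE 0.46, adjusted p 0.000386) in Fev-only cells and by 2.62 (SE 0.46, adjusted p 0.00209) in Neurog3-Fev cells. Wdr63, an inner dynein arm gene, had medians of 2.06, 15.7 and 21.7 FPKM in Neurog3-only, Neurog3-Fev and Fev-only cells and a Fev-only difference of 2.28 (SE 0.46, adjusted p 0.00182). Dynlrb2, a dynein light chain gene, had 0, 18.2 and 32.9 FPKM, and hormone cells had 30.1 FPKM. Dnah9, an outer arm dynein heavy chain gene, was low throughout, with medians of 0.820, 5.17 and 6.15 FPKM, and was higher in Neurog3-Fev cells by 1.51 (SE 0.40, adjusted p 0.0351). Wdr16, another axonemal gene, was low until hormones appeared, with medians of 0.745, 0.0872 and 0.719 FPKM and then 10.8 FPKM in hormone cells.

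The intraflagellar transport and primary cilium list (60 of 63 fitted) had 7 lower and 0 higher genes in Neurog3-only against hormone cells (median -0.49), 1 lower in Neurog3-Fev cells (median 0.24) and 6 higher and 1 lower in Fev-only cells (median 0.37). Both directions together, these are 11.7%, 1.67% and 11.7% of the list, beside 8.15%, 3.59% and 10.8% of all genes. Such joint shares were near or below those of all genes in Fev-positive cells. By direction, 4.82% of all genes were lower and 3.33% higher in Neurog3-only against hormone cells. In Neurog3-Fev cells 1.34% were higher and 2.25% lower, and in Fev-only cells 3.73% were higher and 7.06% lower. The list's 6 higher and 1 lower genes in Fev-only cells thus leaned the other way from all genes. Lower in Neurog3-only than in hormone cells were the Joubert syndrome gene Ahi1 (-1.85, SE 0.37, adjusted p 0.00226), the ciliary GTPase gene Arl3 (-0.67, SE 0.16, adjusted p 0.00922), the transition zone gene Tmem216 (-0.83, SE 0.21, adjusted p 0.0138) and the transport subunit gene Ift81 (-0.87, SE 0.23, adjusted p 0.0165). Higher in Fev-only cells were the kinesin-II subunit genes Kifap3 (1.53, SE 0.33, adjusted p 0.00362) and Kif3a (1.04, SE 0.29, adjusted p 0.0202) and the polycystin gene Pkd1 (1.49, SE 0.35, adjusted p 0.00681). The transition zone gene Nphp4 was lower in Neurog3-Fev (-1.89, SE 0.49) and in Fev-only cells (-2.11, SE 0.49).

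The basal body and centriole list (29 of 32 fitted) had 1 higher and 1 lower gene in Neurog3-only against hormone and in Fev-only against Neurog3-only cells, 6.90% of the list beside 8.15% and 10.8% of all genes, and 0 in Neurog3-Fev against Neurog3-only cells (3.59%). The list thus had no larger share than all genes. Odf2, a gene of the mother centriole's appendages, had medians of 28.7 FPKM in Neurog3-only and 72.5 FPKM in Fev-only cells (1.37, SE 0.27, adjusted p 0.00121), and Poc1a, a centriole stability gene, had 71.2 and 1.06 FPKM (-4.37, SE 0.59, adjusted p 3.13e-05). Of the multiciliation regulators, 8 of 15 could be fitted. The geminin-family genes Mcidas and Gmnc and the cyclin-like gene Ccno had state medians of at most 0.689 FPKM. The list genes that changed were Hes1, a repressor gene downstream of Notch, which was higher in Neurog3-only than in hormone cells (1.22, SE 0.36, adjusted p 0.0404) and lower in Neurog3-Fev (-1.62, SE 0.41) and Fev-only cells (-1.74, SE 0.41), and the zinc finger gene Jazf1, which went the other way in hormone (-2.55, SE 0.40) and Fev-only cells (1.93, SE 0.45). None of the 5 other RFX and partner genes fitted passed the test in these comparisons, though in 5 of 25 alternative analyses, among them leaving out E12.5 run 1, Rfx6 was higher in Neurog3-only than in hormone cells. Rfx6, which is required for islet cell formation in mice, had medians of 139.7 FPKM in Neurog3-only, 209.5 in Neurog3-Fev, 182.3 in Fev-only and 106.1 in hormone cells, above the 3 RFX genes followed here in every state. No list gene passed the test along day or between runs.

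**Figure D4:**
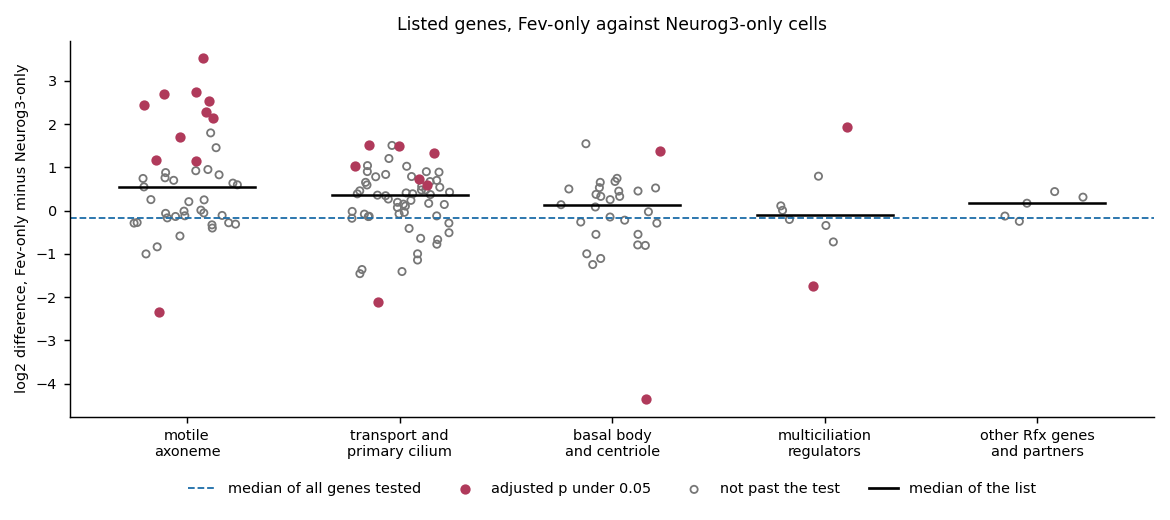
Log2 difference between Fev-only and Neurog3-only cells for every fitted gene of the 5 ciliary lists, filled where the limma adjusted p was under 0.05, with a bar at each list's median and a dashed line at the median of all genes fitted (-0.17). The motile axoneme list has 10 filled points above 0 and 1 below.

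Markers of duct epithelium moved with these lists. Their summed level ran from 457.8 to 1742 FPKM (median 1026) in Neurog3-only cells, from 168.2 to 695.4 FPKM (median 222.6) in Neurog3-Fev cells, from 90.7 to 235 FPKM (median 183) in Fev-only cells and from 150.3 to 565.9 FPKM (median 260.6) in hormone cells, and none of the 8 markers was at 0 in all sets of a state. Of 7 fitted, 3 (Spp1, Krt19 and Anxa2) were lower in Fev-only cells. Their part in the ciliary differences was not tested. Without cells carrying other-type markers, the motile axoneme list had 9 higher and 1 lower genes in Fev-only cells (9 of these among the 11 of the full set of cells) and 6 lower ones in Neurog3-only against hormone cells (5 among the 10), while the transport list had 3 higher and 2 lower in Fev-only cells and 3 lower in Neurog3-only against hormone cells. Leaving out 1 set moved some of these counts. The 10 lower motile axoneme genes of Neurog3-only against hormone cells became 6 without E12.5 run 1, E14.5 run 1 or E14.5 run 2, the 4 higher ones in Neurog3-Fev cells became 2 without E13.5 run 2, E14.5 run 1, E14.5 run 2 or E15.5 run 2, and the 10 higher ones in Fev-only cells became 6 without E14.5 run 1. With Neurog3 and Fev at 30 FPKM these 3 counts became 4, 0 and 5. With hormones at 10 FPKM they became 5, 3 and 6. The 7 lower transport genes became 4 without E13.5 run 2 or E14.5 run 1 and 3 without E14.5 run 2, and the 6 higher ones in Fev-only cells became 3 without E13.5 run 1 or E14.5 run 2. In Fev-only cells Drc1 passed the test in 24 of 25 alternative analyses and Wdr63 in 23, while Nphp4 in Neurog3-Fev cells passed in 8 of 24 and Hes1 against hormone cells in 6 of 23. Within a run the sets are few: the motile axoneme list had 5 lower genes in Neurog3-only against hormone cells in run 1 and 0 in run 2, and 1 and 0 higher ones in Neurog3-Fev cells. It had 2 higher and 0 lower genes in Fev-only cells in run 1, and 2 and 1 in run 2, and the transport list had none.

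Transcript-level estimates placed most signal of each gene on 1 or 2 annotated transcripts. ENSMUST00000094156.4 carried 92.3% to 96.2% of the summed Fam183b medians in the 4 states, and ENSMUST00000108503.2 carried 99.4% of those of Tekt1 in Neurog3-only cells. The latter starts 9 bases from the RefSeq start whose promoter is shown above. For Tekt2, ENSMUST00000030658.6 had 63.99% to 72.01%. It starts 489 bases from the start of the printed window, which is that of ENSMUST00000102616.1, with 27.99% to 36.01%. For Rfx3 the estimates were divided: ENSMUST00000165566.1 had 65.2% in Neurog3-only and 40.2% in Fev-only cells, and ENSMUST00000172907.1 had 11.3% and 44.3%. Short reads from a low-level gene leave such shares uncertain, and they were not tested. The SMART-seq protocol does not mark strand, so reads of a gene and of one overlapping it on the other strand cannot be told apart. The overlapping entry Gm12945 had a median of 13.53 FPKM beside 103 for Tekt2, Gm20407 had 0.611 beside 12.2 for Rfx3, and C330011M18Rik had 0.0359 beside 0.886 for Rfx1.

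Over the 28 averages, the genes whose pattern was most like that of Rfx3 were Dctn2 (Pearson r of log levels 0.77), Ffar2 (0.74), Krt8 (0.73), Psmd8 (0.71) and Txnip (0.71). For Foxj1, which is at 0 in most averages, Npy (0.76) headed a list otherwise made of microRNA entries (0.72 each). The lists for the axonemal genes were drawn after their values were seen. Tekt2 was most like Gpr142 (0.93), Neurod1 (0.93), Pnmal1 (0.92), Pax6 (0.92) and Cryba2 (0.92), Fam183b like Hepacam2 (0.92), Zcchc18 (0.92), Scg3 (0.91), Anxa4 (0.91) and Tspan7 (0.90), and Tekt1 like Gstm2 (0.80), Wfdc2 (0.78), Bcl2 (0.75), Pard3 (0.75) and Tubb6 (0.73). Among the members, Tekt2 and Fam183b had an r of 0.73, Rfx2 had 0.63 with Tekt2 and 0.60 with Fam183b, and Tekt1 had -0.48 with Tekt2 and -0.54 with Fam183b. The averages share libraries and sets, so no p is given.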

How the data were processed

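Single-cell cDNA was made with the SMART-seq protocol and libraries with the Nextera XT kit, per the labels' protocols. The submitters' processing notes name TopHat2 2.0.13, Cufflinks 2.2.0 and mm10. The authors deposited FPKM per gene and per transcript, which were not divided by each cell's depth: summed FPKM followed mapped fragments (Pearson r of log10 values 0.993 over the kept cells). Each cell was therefore multiplied by 587177 (the median of kept cells) over its own mapped fragments. Depth ran from 101675 to 1990000 fragments in the 658 cells kept, 63 were left out, and 0 value columns were unmapped.

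Cells were filtered and placed in states by deposited FPKM, which also gave the shares of cells and the marker counts. Means of scaled FPKM over at least 5 cells of a state in a set were compared as log2(mean FPKM + 1). Fold changes on this scale understate those of low genes. limma 3.58.1 (R 4.3.3; trended empirical Bayes) fitted all genes with a mean of at least 1 FPKM, with the set as a block for states, day and run for the slope, and day as a factor for runs, with Benjamini-Hochberg adjustment at 0.05. The fits were tested on simulated data. Intervals of shares are exact Clopper-Pearson at 95%, and floors are 3 counts of the total. Both cover counting error only. The tests were first planned for depth-normalised FPKM.

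The members, thresholds and lists were chosen with earlier results of these data known. Named are the 7 members, up to 4 genes per ciliary list and state comparison with the lowest p past the test, and the 5 genes most like Rfx3 and Foxj1, and state-defining genes and markers as checks. A result that this rule would name is not reported here. In the choice of like genes, predicted entries were left out. Tools were Python 3.11.15, pandas 2.3.3, NumPy 2.4.6, SciPy 1.17.1 and matplotlib 3.10.9. Promoter sequences are from RefSeq, GRCm38.p6. Alternatives covered the pseudocount, filters, thresholds, scaling, runs, days and left-out sets.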

Additional observations from a re-analysis of the deposited data

Results flagged for a closer look

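Of 28 groups of set means checked, 5 had 1 set standing apart from its group, and chance gives about 1 in 20 such flags. That rate does not hold for Foxj1 groups with 1 set above 0 and the others at 0, which are always flagged. Tekt2 in the 7 Neurog3-only cells of E12.5 run 1 averaged 1.15 FPKM, where the next lowest set had 33.1. Rfx2 in the 9 hormone cells of E12.5 run 1 averaged 0.300 FPKM, where the next lowest had 6.72. Foxj1 stood apart because 1 set was above 0 and the others were at 0: it averaged 0.119 FPKM in Neurog3-only cells of E15.5 run 2, 0.179 FPKM in Neurog3-Fev cells of E14.5 run 2 and 0.0703 FPKM in Fev-only cells of E13.5 run 2.

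Signal of the axonemal genes also appeared in cells outside the state comparisons. Of the 66 cells with none of the state genes and fewer than 3 markers of another cell type, 42 had Tekt2 (63.6%, exact 95% interval 50.9 to 75.1) and 46 had Fam183b (69.7%, 57.2 to 80.4) at 1 FPKM or more, at a median depth of 494400 fragments, where a count of 0 would allow 4.55%. Rfx3 was found in 62.1% of these cells and Tekt1 in 13.6%. Over all cells with none of the state genes, in sets of at least 5, Fam183b averaged 57.2 FPKM at E11.5 and 14.8 at E12.5. From E13.5 on it averaged 2254, 1210 and 713 FPKM in run 1 and 1293 at E14.5 of run 2. Tekt2 averaged 16.4 and 2.21 FPKM, then 205.8, 236.3 and 58.95 in run 1 and 170.8 at E14.5 of run 2. Fev-only medians were 1026 and 178 FPKM, so high levels were not confined to cells with Fev or a hormone past its threshold.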

How the results depend on the processing

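The sign of each state difference of Rfx2, Tekt1, Tekt2 and Fam183b held in each of the alternatives that gave a value for it (24 or 25), Rfx1 and Rfx3 with the exceptions given in the report. Of the tested counts, the 1307 genes of Neurog3-only against hormone cells became 772 with Neurog3 and Fev at 30 FPKM, 635 with hormones at 10 FPKM, 394 in run 1 and 144 in run 2, and 806 (without E14.5 run 1) to 1249 with 1 set left out. The 575 of Neurog3-Fev against Neurog3-only cells became 256 at 30 FPKM, 54 in run 1, 61 in run 2 and 278 (without E14.5 run 1) to 642. It was 359 without E13.5 run 2 and 300 without E15.5 run 2. The 1730 of Fev-only cells became 392 in run 1, 657 in run 2 and 1246 to 1833. The slope's 0 became 3 with at least 300000 fragments, 2 at 30 FPKM, 3 without E12.5 and E13.5 of run 1, and 0 to 2 (without E12.5 run 1). The 28 between runs became 44 with a pseudocount of 0.1, 14 with no filter, 175 with means of logs, 17 with hormones at 10 FPKM, 0 without E12.5 and E13.5 of run 1, and 0 to 28, with 0 or 1 where any set of E13.5 to E15.5 was left out. Higher and lower calls were 277 and 924 for Neurog3-only against hormone cells with FPKM as deposited (median of all genes -0.15), and 247 and 248, or 178 and 216, for Neurog3-Fev cells with rescaled or deposited FPKM. Against a pooled slope of 0.24, that of Rfx2 was -0.23 with hormones at 10 FPKM, -0.0171 without E12.5 and E13.5 of run 1, -0.21 in run 2 and -0.0669 to 0.68 with 1 set left out. Tekt1 had -0.31 in run 2, Tekt2 -0.10 with means of logs and -0.00367 with at least 10 cells or from E13.5, and Fam183b -0.29 with means of logs, -0.0121 with 300000 fragments, -0.41 with at least 10 cells or from E13.5, -0.38 in run 2 and -0.38 without other-type cells. Between runs, Rfx2 had 0.34 with hormones at 10 FPKM, and Rfx3, at 0.00, had -0.00056 with 300000 fragments, -0.23 with hormones at 10 FPKM, -0.19 without E12.5 and E13.5 of run 1, -0.28 as deposited, -0.0406 with states from scaled FPKM, -0.0180 without other-type cells and -0.33 to 0.53. The causes were not tested. No list gene named above took the other sign in an alternative. States were compared with the set as a block. No paired analysis was possible because, beyond the set, the labels number only single cells and their index pairs (all 96 recur between sets), and the means compared carry no number. With 6 to 8 sets and few cells in early ones, small differences were not detectable at this depth.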
